A study of Mus musculus with 7 samples.

Results

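Chromatin accessibility was described at 7 regulators of the trophoblast and extra-embryonic lineages, Cdx2, Gata3, Gata2, Tfap2c, Elf5, Ascl2 and Hand1, in WT and Smad2/3 DKO EpiLCs. A site was assigned to a gene when its midpoint lay within 50 kb of a transcription start site (TSS) of a curated RefSeq transcript of that gene in mm10. This rule found 45 of the 75880 accessible sites listed for the series, and none of the 7 genes was without a site. The sites were chosen by position and not by their accessibility. Gata3 had 10 sites, Cdx2 had 9, Ascl2 had 8, Tfap2c and Hand1 had 6 each, and Elf5 and Gata2 had 3 each. For 27 of the 45 sites, the nearest curated TSS was that of the regulator itself.

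EpiLCs are epiblast-like cells that model the epiblast shortly after implantation. They were made here from ESCs of strain 129/Sv//Ev kept with inhibitors of Mek and Gsk3 and with LIF, by 48 h of culture (day 2) in 20 ng/ml activin A and 12 ng/ml Fgf2, and both genotypes received this treatment. The WT libraries came from clone CCE and the DKO libraries from clone KT15.1F6, in which exon 1 of Smad3 had been removed with a Cas9 nickase in ESCs homozygous for the Smad2 tm1Rob null allele, so that both receptor-activated Smads of the activin and Nodal pathway were lost. With 3 differentiations of 1 clone per genotype, clone and genotype cannot be told apart. ATAC-seq uses a transposase, Tn5, that cuts open DNA and attaches adapters there, so open regulatory elements collect reads. Each reaction used 75000 cells, with 2 technical replicates, and 100 ng of WT genomic DNA treated with Tn5 served the authors as 1 control library for calling sites.

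The deposited concentration of a site is the log2 of the mean normalized reads over the 3 libraries of a genotype. It is the authors' mean, so a concentration of 4 stands for a mean of 16 normalized reads. For each site the table lists 1 such mean for WT and 1 for DKO, and the single libraries are not listed. The depth of the libraries and the spread between differentiations are therefore unknown, no difference was tested, and no error can be given for any value below. Differences are DKO minus WT on the log2 scale, and a site is described as past 1.5-fold when the difference exceeded 0.585 in either direction. In bulk chromatin, fewer cells with an open site and a less open site in each cell cannot be told apart.

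In the mouse embryo the trophectoderm is the first lineage to separate from the cells that form the embryo proper, and its descendants build the placenta. Cdx2 and Gata3 are transcription factors that start the trophectoderm programme, and Tfap2c and Gata2 act with them in trophoblast cells. Elf5 is an Ets-family factor that maintains trophoblast stem cells, and its promoter is known as a methylated gatekeeper in ESCs. Ascl2 and Hand1 are basic helix-loop-helix factors of the spongiotrophoblast and of trophoblast giant cells, respectively. Smad2 and Smad3 carry activin and Nodal signals in the epiblast, whereas Bmp4 from the extra-embryonic ectoderm acts through Smad1 and Smad5. The comparison asks whether accessibility around these genes differed between EpiLCs with and without Smad2/3.

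The sites that differed most are shown first, because they are few. They lie mostly outside promoters, as do the 45 sites, of which 9 lie within 1 kb of a TSS of their gene. Of the 45 sites, 6 were lower in DKO EpiLCs by more than 1.5-fold (13.3%) and 2 were higher (4.44%). Among all listed sites, 16.0% were lower and 8.51% were higher by this measure, so neither share was higher at the regulators than over all listed sites. Of the 8 sites, 7 are printed 5′ to 3′ on the plus strand of mm10, up to 300 bases around the midpoint. Where a site overlapped an exon of a protein-coding gene, the longest stretch without it is given. Capitals mark matches, on either strand, to the 12 short strings searched: CAGACA of Smad3 and Smad4 in the sites 8311 bp upstream of Cdx2 and 20359 bp downstream of Ascl2, TTTATNG of Cdx factors in the sites 16436 bp upstream of Cdx2 and 26414 bp downstream of Tfap2c, GGCGCC of Smad1 and Smad5 in the first of these and near Hand1, GGAATG of Tead factors near Tfap2c, and GGATTA of Otx2 near Ascl2. The Gata3 site and the Elf5 site have no capitals in the bases shown.
Cdx2, 8311 bp upstream, chr5:147315466-147315710: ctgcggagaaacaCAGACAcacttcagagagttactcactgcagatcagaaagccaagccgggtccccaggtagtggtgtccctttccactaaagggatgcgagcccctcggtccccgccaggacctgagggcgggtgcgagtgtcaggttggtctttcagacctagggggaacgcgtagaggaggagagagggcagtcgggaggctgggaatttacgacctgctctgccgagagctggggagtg
Cdx2, 16436 bp upstream, chr5:147323541-147323830: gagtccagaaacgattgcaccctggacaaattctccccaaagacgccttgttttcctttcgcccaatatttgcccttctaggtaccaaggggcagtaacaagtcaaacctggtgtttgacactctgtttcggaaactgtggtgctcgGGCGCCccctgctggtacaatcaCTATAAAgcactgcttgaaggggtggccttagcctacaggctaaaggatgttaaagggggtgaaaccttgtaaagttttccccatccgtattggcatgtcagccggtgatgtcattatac
Gata3, 25210 bp downstream, chr2:9853241-9853540: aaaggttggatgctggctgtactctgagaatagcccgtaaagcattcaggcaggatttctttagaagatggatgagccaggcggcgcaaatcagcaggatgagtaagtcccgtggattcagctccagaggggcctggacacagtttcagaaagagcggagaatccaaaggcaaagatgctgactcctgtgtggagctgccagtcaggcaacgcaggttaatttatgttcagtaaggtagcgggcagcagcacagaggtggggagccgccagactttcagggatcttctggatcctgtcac
Tfap2c, 26414 bp downstream, chr2:172577256-172577555: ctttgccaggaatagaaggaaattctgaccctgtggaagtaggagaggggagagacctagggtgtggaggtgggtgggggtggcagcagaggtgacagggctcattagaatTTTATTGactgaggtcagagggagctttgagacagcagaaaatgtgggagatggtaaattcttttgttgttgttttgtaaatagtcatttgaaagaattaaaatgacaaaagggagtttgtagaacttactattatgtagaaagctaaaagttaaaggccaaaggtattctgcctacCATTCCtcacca
Elf5, 21847 bp downstream, chr2:103445811-103446020: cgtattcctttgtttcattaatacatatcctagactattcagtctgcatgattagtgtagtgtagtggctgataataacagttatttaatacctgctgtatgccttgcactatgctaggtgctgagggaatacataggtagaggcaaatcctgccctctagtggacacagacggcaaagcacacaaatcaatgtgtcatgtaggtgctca
Ascl2, 20359 bp downstream, chr7:142948811-142949000: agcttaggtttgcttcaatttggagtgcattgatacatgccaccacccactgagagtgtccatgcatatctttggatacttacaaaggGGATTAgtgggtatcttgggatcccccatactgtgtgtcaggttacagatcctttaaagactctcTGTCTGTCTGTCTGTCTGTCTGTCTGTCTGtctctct
Hand1, 733 bp upstream, chr11:57832781-57832980: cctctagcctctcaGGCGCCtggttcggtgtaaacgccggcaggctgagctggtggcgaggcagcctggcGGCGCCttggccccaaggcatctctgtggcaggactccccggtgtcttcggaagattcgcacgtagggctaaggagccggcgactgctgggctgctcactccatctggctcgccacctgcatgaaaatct

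The element downstream of Tfap2c had the largest positive difference of the 45 sites and the one upstream of Hand1 the largest negative difference. The Hand1 element has a GC content of 64.5% with 14 CpGs in 200 bases, and the Tfap2c element has a GC content of 42.3% with 0 CpGs in 300 bases. Both overlap exons of predicted noncoding transcripts, Gm36038 at Tfap2c and Gm32915 at Hand1, and neither lies in a curated gene. The CAGACA matches at Ascl2 all fall within a simple TGTC repeat.

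Cdx2, on the minus strand of chromosome 5 (147300900 to 147307249), was lower at all 9 of its sites, by small amounts. Its TSS site (chr5:147306300-147307710, covering the first exon) had a concentration of 7.24 in WT and 7.01 in DKO EpiLCs, a difference of -0.23. This was the site with the highest concentration at Cdx2 in WT EpiLCs, so the promoter was open in both genotypes. Both sites past 1.5-fold lay upstream of the gene, nearer to the TSS of the neighbouring gene Urad than to that of Cdx2. The site 8311 bp upstream (chr5:147315400-147315720), in intron 1 of Urad, had 23.4 normalized reads in WT and 14.0 in DKO EpiLCs, 1.67-fold lower. The intergenic site 16436 bp upstream (chr5:147323540-147323830) had 24.9 and 15.9 normalized reads, 1.57-fold lower. Among listed sites of like mean concentration (within 0.25), 21.2% and 20.4%, respectively, were lower by more than 1.5-fold. The remaining 7 sites differed by -0.44 to -0.03. The most negative of these covered the first exon of Pdx1, a pancreatic homeobox gene 37089 bp downstream of the Cdx2 TSS, with 6.53 in WT and 6.09 in DKO EpiLCs. Over all 9 sites the median difference was -0.21, and over the 45 sites lying 50 to 500 kb from the Cdx2 TSS it was -0.29, so the sites of Cdx2 were not lower than those of their neighbourhood.

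Gata3, on the minus strand of chromosome 2 (9857078 to 9887953), had the most accessible TSS site per kb of the 7 genes, with nearly equal levels in both genotypes. The site centred 525 bp upstream of its TSS (chr2:9878220-9880030) had a concentration of 8.50 in WT and 8.52 in DKO EpiLCs, equal to 200.0 normalized reads per kb of site in WT EpiLCs. The broad neighbouring site 3720 bp upstream, in the divergent noncoding gene 4930412O13Rik, had 7.53 and 7.55. The differences at Gata3 lay away from the promoter, and both sites downstream of the gene were higher in DKO EpiLCs. The intergenic site 25210 bp downstream (chr2:9853140-9853640) had 16.7 normalized reads in WT and 32.4 in DKO EpiLCs, 1.95-fold higher, and 8.07% of the 11264 listed sites of like concentration (within 0.25) were higher by more than 1.5-fold. Its neighbour 22290 bp downstream (chr2:9855920-9856700) had 5.76 and 6.25, a difference of 0.49 that did not reach 1.5-fold. Of the 10 sites, 6 were above and 4 below 0, the lowest being -0.45 at 25650 bp upstream (5.34 and 4.89).

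The promoters of Cdx2 and Gata3 are printed because these genes start the trophectoderm programme and their TSS sites were open in both genotypes. They give 250 bases upstream of the annotated start, from RefSeq on GRCm38.p6, 5′ to 3′ on the strand of the gene. In the Cdx2 promoter the capitals mark, in order, the E-box CAGCTG, the octamer ATGCAAAT of POU factors, the reverse complement of CAGACA, and the AP-2 string GCCNNNGGC bound by Tfap2 factors. In the Gata3 promoter they mark 3 AP-2 strings and a GGCGCC that directly follows the last of them.
Cdx2 promoter, minus strand, chr5:147307250-147307499: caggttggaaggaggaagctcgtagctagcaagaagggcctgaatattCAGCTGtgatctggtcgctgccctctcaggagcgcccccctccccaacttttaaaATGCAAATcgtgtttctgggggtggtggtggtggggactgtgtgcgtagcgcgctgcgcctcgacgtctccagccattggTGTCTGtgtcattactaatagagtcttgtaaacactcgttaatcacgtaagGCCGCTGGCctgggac
Gata3 promoter, minus strand, chr2:9878601-9878850: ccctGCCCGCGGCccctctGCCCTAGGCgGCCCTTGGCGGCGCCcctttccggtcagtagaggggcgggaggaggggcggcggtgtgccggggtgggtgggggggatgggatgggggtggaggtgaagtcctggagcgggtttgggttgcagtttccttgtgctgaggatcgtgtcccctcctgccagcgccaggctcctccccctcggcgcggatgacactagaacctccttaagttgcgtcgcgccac

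The AP-2 string occurred in 13.7% of 32851 RefSeq promoters of this length, and the octamer in 1.60%. The E-box was in 13.0% of them, CAGACA in 17.1% and GGCGCC in 9.59%. A match is given as a description of the letters and not as a bound site.

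Gata2, on the plus strand of chromosome 6 (88193891 to 88207032), had only 3 sites, none of them past 1.5-fold. The site 199 bp upstream of its second curated TSS (chr6:88198130-88198800) had 5.66 in WT and 5.32 in DKO EpiLCs. The most accessible site, 4176 bp upstream of the first TSS (chr6:88189430-88190000), had 6.61 and 6.52. The third, 44186 bp downstream, had 4.08 and 4.10. Thus 2 of the 3 sites were below 0, by -0.34 and -0.09.

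Tfap2c, on the plus strand of chromosome 2 (172545678 to 172558622), was slightly lower around its promoters and higher at 1 distal element. The site 12 bp from a TSS (chr2:172549340-172549870) had 5.53 in WT and 5.27 in DKO EpiLCs. The most accessible one, 296 bp upstream of the next TSS (chr2:172550160-172551230), had 7.11 and 6.94. A site 2058 bp upstream had 5.70 and 5.22, so the 3 sites around the promoters were all lower, by -0.48 to -0.17. By contrast, the site 26414 bp downstream (chr2:172577220-172577590) had 13.8 normalized reads in WT and 33.4 in DKO EpiLCs. This 2.41-fold difference (1.27) was the largest of the 45 sites in either direction, and 8.57% of 11345 listed sites of like concentration were higher by more than 1.5-fold. An intergenic site 32903 bp upstream had 6.77 and 6.87, and a weak site 39093 bp upstream had 3.87 and 3.47.

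Elf5, on the plus strand of chromosome 2 (103412098 to 103450989), was lower at all 3 of its sites, all of them intronic and weak. Of the 3 sites, 2 were past 1.5-fold. The site in intron 4, 21847 bp downstream of a TSS (chr2:103445810-103446020), had 20.5 normalized reads in WT and 10.6 in DKO EpiLCs, 1.95-fold lower. The most accessible site, in intron 3 (chr2:103439830-103440090), had 4.89 and 4.57, a difference of -0.32. At a concentration like that of the intron 4 site, 23.4% of listed sites were lower by more than 1.5-fold. Elf5 had no site over its first curated TSS, at 103412098. Its sites had the lowest median GC content of the 7 genes, 43.7%, and the 24 sites lying 50 to 500 kb away had a median difference of -0.20.

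Ascl2, on the minus strand of chromosome 7 (142966822 to 142969264), is an imprinted gene of the placenta. Its TSS site (chr7:142968960-142969560) had 6.15 in WT and 5.99 in DKO EpiLCs, and its most accessible site, over its second exon (chr7:142967310-142968540), had 7.48 and 7.44. The gene body was thus open to nearly the same level in both genotypes. The only site past 1.5-fold, 20359 bp downstream (chr7:142948810-142949000), had 21.4 and 13.8 normalized reads, 1.55-fold lower, with 22.1% of sites of like concentration lower by that much. Its neighbour 31449 bp downstream differed by -0.47 (4.31 and 3.84), and a site in Tspan32, 46936 bp upstream, by -0.51 (5.22 and 4.71). A weak site 33686 bp upstream was the one site of Ascl2 above 0 (2.87 and 3.34). The median over the 8 sites was -0.30, beside -0.28 over the 38 sites lying 50 to 500 kb away.

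Hand1, on the minus strand of chromosome 11 (57828713 to 57832147), was lower at both sites next to its TSS. The site over its first exon (chr11:57831420-57832480) had 6.29 in WT and 5.78 in DKO EpiLCs, a difference of -0.51 that did not reach 1.5-fold. The weak site 733 bp upstream (chr11:57832780-57832980) had 11.7 and 5.10 normalized reads, 2.30-fold lower, the most negative difference of the 45 sites. At this level the background is wide: 35.7% of 3164 sites of like concentration were lower and 27.6% were higher by more than 1.5-fold. Within the gene, 2 sites were above 0, by 0.36 in intron 1 and by 0.10 in the last exon. The most accessible site in WT EpiLCs, with 6.35 and 6.78, lay 67 bp from the TSS of Sap30l, 30577 bp from that of Hand1.

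**Figure D1:**
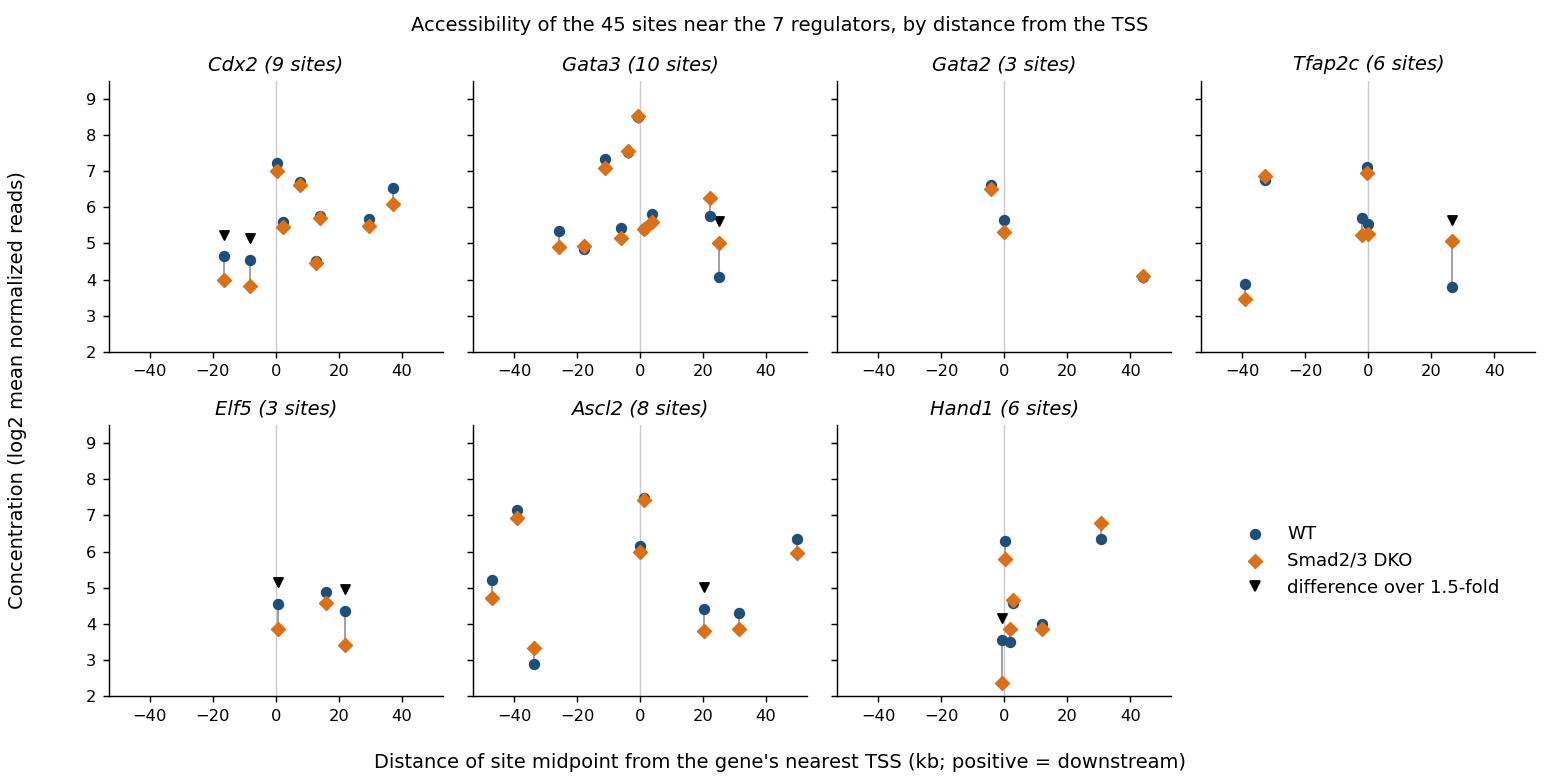
Concentration (log2 mean normalized reads, the authors' mean of 3 libraries per genotype, so no error bars) of each of the 45 sites against the distance of its midpoint from the gene's nearest TSS in kb, 1 panel per gene. Blue circles are WT and orange diamonds DKO EpiLCs, joined by a line for each site, and black triangles mark the 8 sites past 1.5-fold, which all have WT concentrations under 5. The TSS site of Gata3 coincides in both genotypes (8.50 and 8.52), and that of Hand1 is lower in DKO EpiLCs (6.29 and 5.78).

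The larger differences lay at weak sites. All 8 sites past 1.5-fold had a mean concentration under 5. Among the 26 sites with a mean concentration of at least 5, 0 were past 1.5-fold and the differences ran from -0.51 to 0.49. In the background at that level, 8.46% of 38061 sites were lower and 3.09% were higher. Among the 19 weaker sites, 6 were lower (31.6%) and 2 higher (10.5%), beside 23.5% and 14.0% of 37819 listed sites. Of the 9 sites within 1 kb of a TSS of their gene, 2 were lower, 1 at Elf5 and 1 at Hand1, and 0 were higher, beside 4.17% lower and 3.69% higher among 15001 listed sites within 1 kb of a TSS. Of the 9, 8 (88.9%) were below 0 with a median difference of -0.26, beside 48.2% and 0.01 over the 15001 sites. Both lower sites had a mean concentration under 5, whereas those 15001 sites had a median mean concentration of 6.71. With 8 reads added to each mean before the log, which damps weak sites, 2 of the 45 sites were lower and 2 higher by more than 1.5-fold. The share of all listed sites past 1.5-fold was not counted with this addition, so these 2 counts have no background.

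Just inside the 1.5-fold limit were the downstream Ascl2 site (-0.63) and the more distant upstream Cdx2 site (-0.65). Just outside were the Tspan32 site near Ascl2 and the Hand1 first exon (both -0.51) and the nearer downstream Gata3 site (0.49). In total 32 of the 45 sites (71.1%) were below 0, beside 57.4% of all listed sites, and the median difference was -0.21, beside -0.08. Beside the sites lying 50 to 500 kb away, the gene medians were lower at Elf5 (-0.69 and -0.20), Tfap2c (-0.215 and 0.015) and Hand1 (-0.02 and 0.16). They were also lower at Gata2 (-0.09 and 0.12) and Gata3 (0.015 and 0.14). The medians were nearly equal at Ascl2 (-0.30 and -0.28), and that of Cdx2 was higher (-0.21 and -0.29). These contrasts were not tested.

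**Figure D2:**
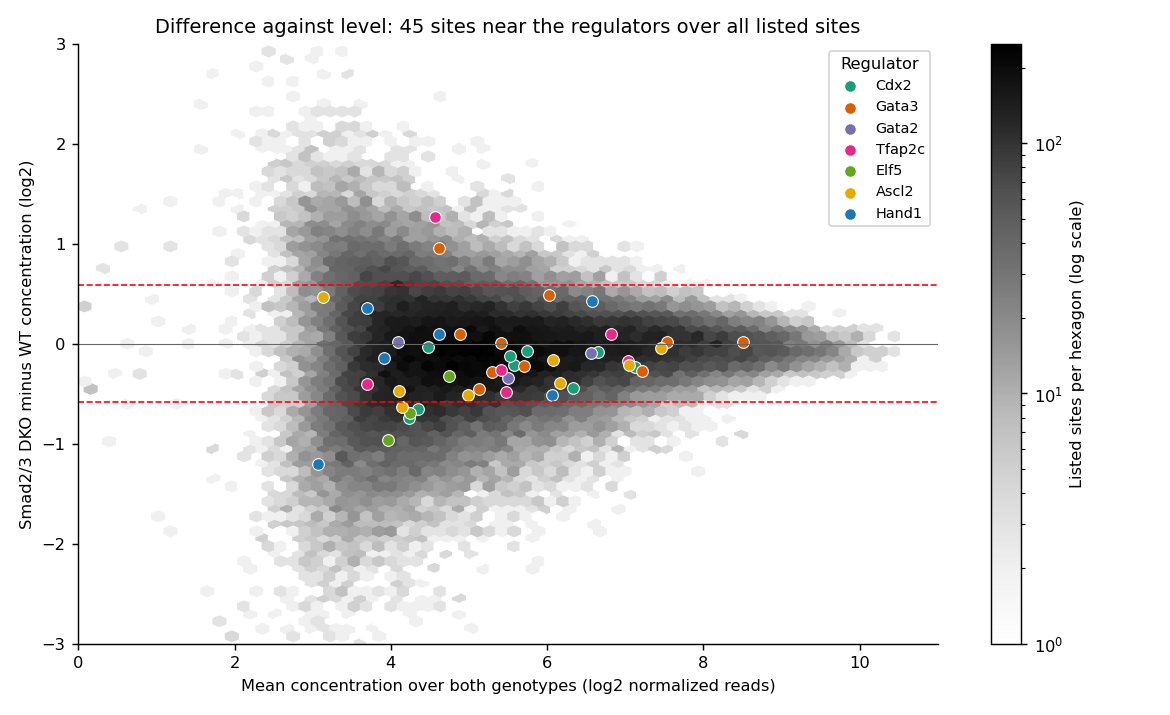
Difference in concentration (DKO minus WT, log2) against the mean concentration of both genotypes (log2 normalized reads) for the 45 sites, coloured by gene, over all listed sites as grey hexagons shaded by their number on a log scale, with red dashed lines at 1.5-fold. The 8 coloured points beyond the lines sit at the left, where the grey cloud is also wide, and 295 listed sites fall outside the axes.

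Summing the normalized reads over the sites of a gene gave 1 value per gene and genotype. Elf5 stood lowest among the 7, with 73.6 in WT and 48.8 in DKO EpiLCs (a log2 ratio of -0.59), and it was the only one of the 7 past 1.5-fold. Among 24412 genes with a site within 50 kb, 2.81% were lower and 1.44% were higher by more than 1.5-fold. The sum of Elf5 rests on 3 weak sites, and 2.68% of genes had a lower ratio. It was -0.51 after subtracting the median difference of all sites and -0.31 within 100 kb, both short of 1.5-fold. Cdx2 followed with 571 and 487 (-0.23), Ascl2 with 558 and 486 (-0.20), and Gata2 with 165 and 149 (-0.15). For these 3 genes, 15%, 18.2% and 24.9% of all genes had a lower ratio. Tfap2c (374 and 360, -0.05), Gata3 (991 and 985, -0.01) and Hand1 (222 and 224, 0.01) lay close to the median of all genes, -0.01, whose quartiles were -0.15 and 0.13.

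The near-equal sums of Tfap2c and Hand1 hid sites that differed in opposite directions. Within 10 kb of the TSS, the log2 ratio was -0.25 for Tfap2c and -0.32 for Hand1, since the higher element downstream of Tfap2c and the Sap30l promoter near Hand1 lie farther away. For Gata3 it was -0.02 within 10 kb. Per kb of site, the sums in WT EpiLCs were alike, from 84.9 normalized reads for Hand1 to 121.4 for Ascl2, and Elf5 with 102.2 lay within this range. Elf5 differed from the others in the covered length, 720 bp, beside 9750 bp at Gata3.

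**Figure D3:**
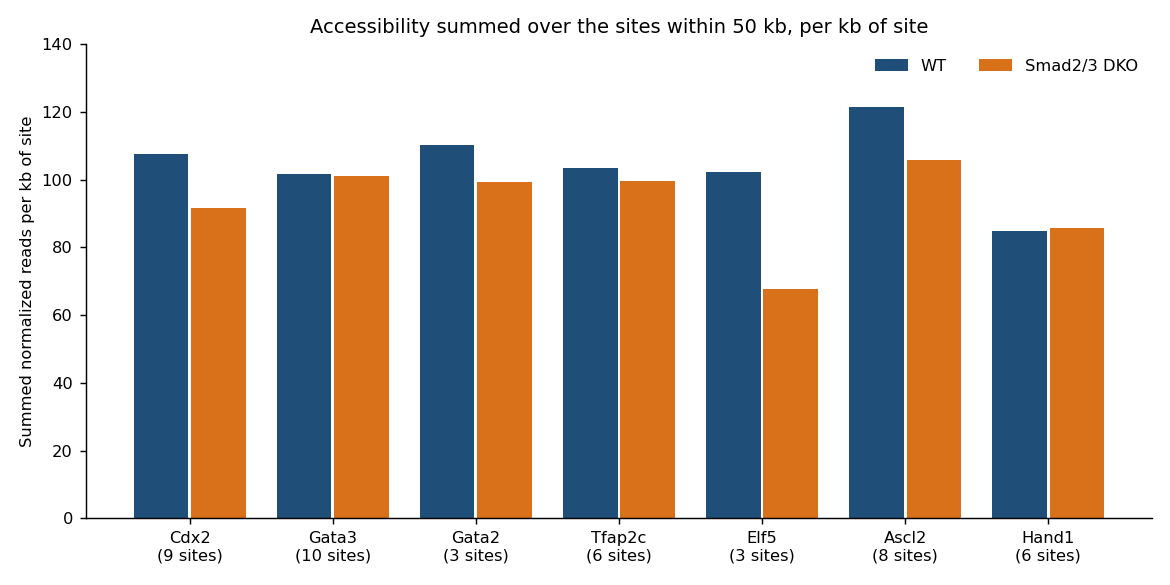
Normalized reads summed over the sites within 50 kb of each gene, per kb of site, in WT (blue) and DKO EpiLCs (orange), with the number of sites under each gene and no error bars, since each genotype has 1 mean. The DKO bar is lower than the WT bar by most at Elf5 (102.2 and 67.8), and the bars of Gata3 (101.7 and 101.0) and Hand1 (84.9 and 85.6) are nearly equal.

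As a group, the regulators' sites differed from the listed sites in width and base content. They were wider than the listed sites in general, with a median of 530 bp beside 400 bp, and richer in GC (57.0% beside 51.0%) and in CpGs (4.33 beside 1.67 per 100 bp). This did not hold within 1 kb of a TSS, where the medians were 670 beside 750 bp and 62.3% beside 65% GC. They were 675 beside 360 bp and 61% beside 51.7% at 1 to 10 kb, and 470 beside 350 bp and 55.7% beside 50% at 10 to 50 kb. These bins are not like for like. Distances run to the regulator's own TSS for the 45 sites, but to the nearest TSS of any gene for the listed sites. At 10 to 50 kb the regulators' sites thus include promoters of other genes, such as Pdx1 and Sap30l. The part of such promoters in these medians was not tested. In all, 12 sequence strings were searched on both strands in the 300 bp around each midpoint. The AP-2 string GCCNNNGGC was in 26.7% of the 45 sites and 14.0% of all listed sites, the Tead string GGAATG in 28.9% and 17.6%, and the GGCGCC string in 17.8% and 9.29%. These 3 were more frequent near the regulators in this window. In 500 bp the Tead string was in 28.9% of the 45 sites and 26.7% of all, the AP-2 string in 31.1% and 20.1%, and GGCGCC in 28.9% and 12.6%. No test was run on these shares, and the part of the higher GC content in them was not tested. Less frequent in 300 bp were CAGACA (13.3% and 23.3%), the E-box CAGCTG (13.3% and 18.3%), the Gata string AGATAA (8.89% and 10.9%), the Cdx string TTTATNG (6.67% and 9.86%) and the Otx2 string GGATTA (6.67% and 8.71%). The Ets string CCGGAAGT, the octamer ATGCAAAT, the FoxH1 string TGTGGATT and the Smad palindrome GTCTAGAC were in 0 of the 45 windows, and in 1.62%, 3.16%, 1.07% and 0.224% of all. For the E-box and FoxH1 the order depended on the window, since over the whole site the E-box was in 28.9% of the 45 sites and 25.9% of all, and FoxH1 in 4.44% and 1.72%. The AP-2 string and GGCGCC can overlap each other, as can CAGACA and the Smad palindrome.

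The 8 sites past 1.5-fold held 0 AP-2 strings, whereas 12 of the 45 sites had one. The 8 sites were also narrower than the other 37 (medians of 270 and 600 bp) and lower in GC (48.2% and 57.3%). All 3 windows with a Cdx string in 300 bp belonged to sites past 1.5-fold, at Cdx2, Hand1 and Tfap2c. The one at Hand1 lies in the window outside the 200 bases shown. In 500 bp, 4 of the 7 sites with a Cdx string were past 1.5-fold, and over the whole site 2 of 4. Counts this small are given as a description only.

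Other genes of these lineages, from lists that do not hold the 7 regulators, had sites past 1.5-fold in both directions. Beside them, 16.0% of all listed sites were lower and 8.51% were higher by this measure. The 15 genes of the trophoblast stem cell and extra-embryonic ectoderm list had 83 sites. Of these, 11 were lower (13.3%) and 11 higher (13.3%) by more than 1.5-fold, with a median difference of -0.01. Of its sites with a mean concentration of at least 4, the 2 past 2-fold were both higher in DKO EpiLCs. At Klf5, which encodes a factor of the trophectoderm and of naive ESCs, a site 26104 bp downstream had 3.99 in WT and 5.25 in DKO EpiLCs. At Pcsk6, which encodes a proprotein convertase that cleaves Nodal, an intronic site 11599 bp downstream had 4.49 and 5.73. In the list of differentiated trophoblast and placenta, 12 of 16 genes had a site. Of 49 sites, 9 were lower (18.4%) and 4 higher (8.16%), with a median of -0.07. Tpbpa, Prl3d1, Prl3b1 and Rhox6, markers of mature trophoblast cells or of the placenta, had none. The largest difference was at Syna, which encodes the fusion protein syncytin A, 11884 bp upstream (4.72 and 3.05), and that site lies 21 bp from the TSS of Mir7228.

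**Figure D4:**
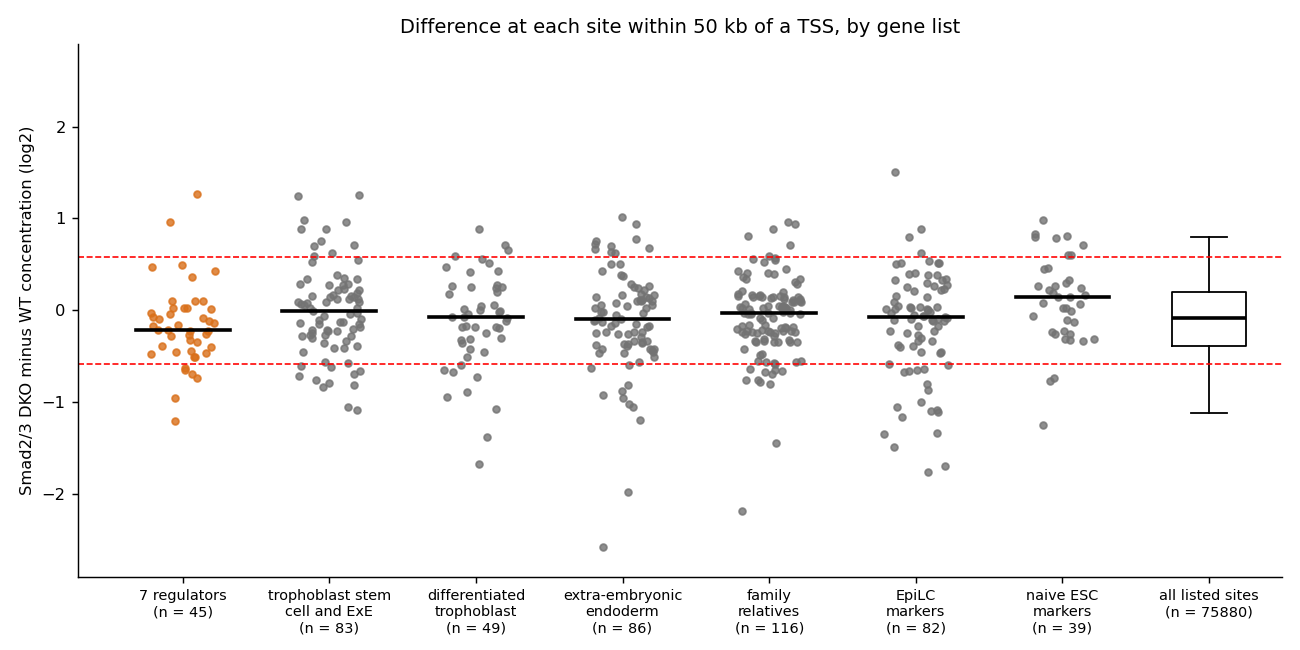
Difference in concentration (DKO minus WT, log2) at each site within 50 kb of a TSS, for the 7 regulators (orange) and 6 other gene lists (grey), with black bars at the medians and red dashed lines at 1.5-fold. The box shows all 75880 listed sites (median, quartiles, and whiskers at the 5th and 95th percentiles), and the points of the regulators lie mostly between the dashed lines, with a median of -0.21.

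The Smad3 deletion and the cell type were checked at other loci of the table. The TSS site of Smad3, 221 bp upstream of the start and next to the deleted exon, had a concentration of 5.42 in WT and -0.10 in DKO EpiLCs, the lowest value listed for DKO. The TSS site of Smad2 had 8.35 and 8.28, so the table shows no sign of the Smad2 allele there, and that allele was not checked otherwise. Of the EpiLC markers, 7 of 8 had a site within 1 kb of a TSS, all but Otx2, with a median of 140.8 normalized reads per kb in WT EpiLCs. All 4 neural and all 5 fibroblast markers had one too, with medians of 158.0 and 85.1, so open TSSs alone do not separate these cell types. The TSS sites of the 7 regulators, at a median of 107.2, lay among them. Of 82 sites of the EpiLC markers, 18 were lower and 4 higher in DKO EpiLCs by more than 1.5-fold (22.0% and 4.88%). Of 39 sites of the naive ESC markers, 3 were lower and 8 higher (7.69% and 20.5%). Over all listed sites the shares were 16.0% and 8.51%, and these contrasts were not tested. Expression of the 7 genes was not analysed here.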

How the data were processed

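ATAC-seq reads (75 bp, paired-end) of 3 WT and 3 Smad2/3 DKO differentiations and 1 Tn5-treated genomic DNA control were aligned by the authors to mm10 with Bowtie2. Non-unique and blacklisted reads were discarded, PCR duplicates were taken out with Samtools, sites were called with DANPOS2, and reads were compared with DiffBind. The versions, the normalization, and whether reads were shifted for Tn5 are not given in the sources used here. The deposited table holds log2 concentrations, the authors' means of normalized reads over all 6 libraries and per genotype, with 2 decimals. Its columns of fold changes, p-values and false discovery rates are the authors' own comparison and were not used.

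Differences were computed as DKO minus WT concentration, and gene sums from the unlogged means. The design allowed for counts per library, which the table does not hold, so no test was run. TSSs were those of 45756 curated RefSeq transcripts of 26180 genes (31647 TSSs) on GRCm38.p6, whose chromosome lengths match mm10. The promoter table held a 250-base upstream sequence for 5 of the 7 genes, not for Tfap2c and Hand1. At each regulator, the site nearest a TSS, the one with the highest WT concentration and all past 1.5-fold are named, except for 1 that is not reported here. From each other list, the site with the largest difference at a mean concentration of at least 4, and any past 2-fold there, are named. The members, lists and rules were chosen with earlier results of these data known. Alternatives were other windows, folds, minimum concentrations, centring, 8 reads added to each mean, and other motif windows. Scripts were tested on simulated data. Python 3.11.15, numpy 2.4.6, pandas 2.3.3 and matplotlib 3.10.9 were used.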

Additional observations from a re-analysis of the deposited data

How the results depend on the processing

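The median difference of the 45 sites stayed below 0 under all 10 alternatives (-0.21 to -0.13), and 66 of 69 alternatives left the gene sums on the same side of 1.5-fold. The 3 that did not were all of Elf5. The main log2 ratios of the other genes, from -0.23 to 0.01, lay far from that limit, so their staying on 1 side says little. The counts past 1.5-fold depended on the settings. The number of lower sites, 6, became 3 within 10 kb, 0 with a mean concentration of at least 5, 2 after adding 8 reads to each mean, 15 at a log2 difference over 0.32 and 1 at a fold of 2. The number of higher sites, 2, became 0 within 10 kb, 0 within 25 kb, 4 within 100 kb, 0 with a mean concentration of at least 5, 6 at a log2 difference over 0.32 and 1 at a fold of 2. Windows, minimum levels and folds take in other sites by construction. After subtracting the median of all sites (-0.08), 4 sites were lower and 2 higher. At a mean concentration of at least 5, 8.46% of listed sites were lower and 3.09% higher. For the other settings the share of all listed sites was not counted, so those counts have no background. The log2 ratio of the Elf5 sums, -0.59, was -0.31 within 100 kb, where 5 sites were summed, -0.47 over the 2 sites with a mean concentration of at least 4, and -0.51 after centring, so its call did not hold there. Several motif shares depended on the window, given here beside the share of all sites in the same window. In 500 bp it was 15.6% and 16.9% for the Cdx string, 26.7% and 26.9% for the E-box, 2.22% and 1.85% for FoxH1, 26.7% and 36.0% for CAGACA, and 28.9% and 12.6% for GGCGCC. Over the whole site it was 44.4% and 20.7% for AP-2, 28.9% and 25.9% for the E-box, 2.22% and 4.23% for the octamer, 4.44% and 1.72% for FoxH1, 28.9% and 32.9% for CAGACA, and 33.3% and 14.2% for GGCGCC. No paired analysis was possible because the table lists only the mean of each genotype, and replicates could not be left out for the same reason. The unknown depth limits the weak sites most.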

Other observations

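The extra-embryonic endoderm, which forms the yolk sac, uses other regulators than the trophoblast. All 19 genes of its list had a site, with a median difference of -0.10. Of 86 sites, 11 were lower (12.8%) and 10 higher (11.6%) in DKO EpiLCs by more than 1.5-fold. Among all listed sites these shares were 16.0% and 8.51%. Foxa2, a forkhead factor of the endoderm, was lower at all 9 of its sites. Its sums were 1229 normalized reads in WT and 852 in DKO EpiLCs (a log2 ratio of -0.53), and the site 6346 bp upstream had concentrations of 7.41 and 6.22. Cubn, which encodes the endocytic receptor cubilin, had 1 site lower and 3 higher. Its site 25961 bp downstream, in exon 14, had 4.58 and 3.53.

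The relatives of the 7 regulators in the same gene families had 116 sites, with a median of -0.03. Of these, 11 were lower (9.48%) and 6 higher (5.17%), beside 16.0% and 8.51% of all listed sites. Ehf, an epithelial Ets factor related to Elf5 and located next to it on chromosome 2, had sums of 86.0 in WT and 49.1 in DKO EpiLCs (-0.81). Its intron 1 site, 9751 bp downstream of the TSS, had 4.60 and 3.15, and its TSS site 4.56 and 2.37. The sums of Ehf rest on 4 sites, all with a mean concentration under 5, and the one 7639 bp upstream was higher (3.65 and 3.80). Among all listed sites under 5, 23.5% were lower by more than 1.5-fold. Elf3, another epithelial Ets factor, had sums of 183 and 231 (0.34). Ehf and Elf3 thus differed in opposite directions, and the difference between them was not tested. Ehf and Elf5, both lower, are neighbours. The naive ESC markers had 3 lower (7.69%) and 8 higher (20.5%) of 39 sites, with a median of 0.14. The largest difference among those with a mean concentration of at least 4 was in the lower direction, 31801 bp upstream of Zfp42 (5.48 and 4.23), although 3 other sites of Zfp42 were higher by more than 1.5-fold and its sums were 419 and 454. The fibroblast markers had 3 lower (14.3%) and 3 higher (14.3%) of 21 sites. Their largest difference at a mean concentration of at least 4, listed 41611 bp from the TSS of Thy1 and 75 bp from that of Usp2, was 0.98. A weaker site of Thy1 differed by -1.29. The neural markers had 2 lower (6.45%) and 1 higher (3.23%) of 31 sites. Their largest difference at a mean concentration of at least 4, -0.68, was at 8109 bp downstream of Neurog2. A weaker site of Pax6 differed by 1.56 (1.89 and 3.45).

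Of the EpiLC markers, 3 genes had sites with a mean concentration of at least 4 that were lower by more than 2-fold. The share of all listed sites past 2-fold was not counted, so this count has no background. Weaker sites lower by more than 2-fold lay also at Otx2 (-1.34), Utf1 (-1.11) and Sox2 (-1.09). At Dnmt3b, a weaker site was higher by more than 2-fold, with 2.91 in WT and 4.42 in DKO EpiLCs (1.51). A site 9643 bp downstream of the TSS of Pou5f1, which encodes the pluripotency factor Oct4, had 5.23 in WT and 3.53 in DKO EpiLCs, and it lies in exon 3 of Cchcr1. Fgf5, a growth factor gene of the epiblast, had 7.50 and 6.15 at 29871 bp downstream and 5.02 and 3.97 at 7974 bp upstream. Pou3f1, which encodes Oct6, had 4.63 and 3.47 at 9581 bp upstream and 5.77 and 4.67 at 17726 bp upstream. At Foxa2, Ehf and Elf3, sums and further sites were chosen after their values were seen.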
